A study of Mus musculus with 7 samples.

Results

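The Cyp4 fatty acid omega-hydroxylase genes are described here in mouse liver from their deposited read counts. They were taken by gene symbol as the 10 genes Cyp4a10, Cyp4a12a, Cyp4a12b, Cyp4a14, Cyp4a31, Cyp4a32, Cyp4f13, Cyp4f14, Cyp4f15 and Cyp4v3, of 51426 genes in the tables, and libraries were joined by Ensembl identifier. All 10 passed the filter on low counts. Liver RNA came from male mice that received a high fat diet (HFD) for 16 weeks, 3 of them WT and 4 of them TET1 KO, that is, without the DNA demethylase TET1 in the whole body. The labels give the strain of every mouse as C57BL/6J, and by the study's methods feeding began at 8 weeks of age. The methods name the null allele B6;129S4-Tet1tm1.1Jae/J, for which no backcross is described, and also a deletion of floxed TET1 by β-actin Cre, and the labels do not say which of these the sequenced mice carried. The study writes the sequenced genotypes as TET1-/- and TET1wt/wt, its notation for the first of these. No animals on normal chow and no females were among the libraries, so diet and sex could not be compared, and a whole-body deletion does not separate the liver from other organs.

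Cyp4 enzymes are cytochrome P450 monooxygenases of the endoplasmic reticulum that take electrons from the reductase Por and hydroxylate fatty acids at or next to the terminal (omega) carbon. Alcohol and aldehyde dehydrogenases turn the products into dicarboxylic acids, which are shortened in peroxisomes. In rodent liver Cyp4a10 and Cyp4a14 are classical targets of the fatty acid receptor PPARalpha, Cyp4a12a is a male-biased gene whose enzyme makes 20-HETE from arachidonic acid, and Cyp4f enzymes also hydroxylate eicosanoids such as leukotriene B4.

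In TET1 KO livers the Cyp4a12 genes were higher, Cyp4a14 was lower, and Cyp4a10 did not pass the test. Cyp4a12a was 3.18-fold and Cyp4a12b 3.17-fold higher, Cyp4f13 was 1.63-fold higher, and Cyp4a14 was 4.43-fold lower. With edgeR's quasi-likelihood test, 3 members were thus called higher and 1 lower, that is, with an adjusted p (Benjamini-Hochberg, over all tested genes) under 0.05, and 6 were not called, against 2.02% of the 14754 tested genes called in either direction, 0.874% higher and 1.15% lower. The median log2 fold change of the 10 members was 0.20, beside 0.01 over all tested genes. For 5 members the livers of the 2 genotypes did not overlap, Cyp4a12a, Cyp4a12b, Cyp4f13 and Cyp4f15 above WT and Cyp4a14 below it. Over all tested genes 22.5% did not overlap, 11.7% with TET1 KO above WT and 10.8% below.

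Library sizes were between 15005277 and 22746138 counts and overlapped between the genotypes. No pair of libraries agreed within sampling noise, since even the closest pair had a chi-square per degree of freedom of 27.4. Tet1, on chromosome 10, had between 1 and 4 counts in each liver of both genotypes, so the counts could not check the genotype labels. None of the 10 members lies on that chromosome. The hepatocyte markers were present in all livers, with sums of 68765 to 90935 CPM (counts scaled to a common library size) in WT and 79692 to 90086 CPM in TET1 KO. In whole tissue fewer cells of a type and less RNA per cell cannot be told apart.

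**Figure D1:**
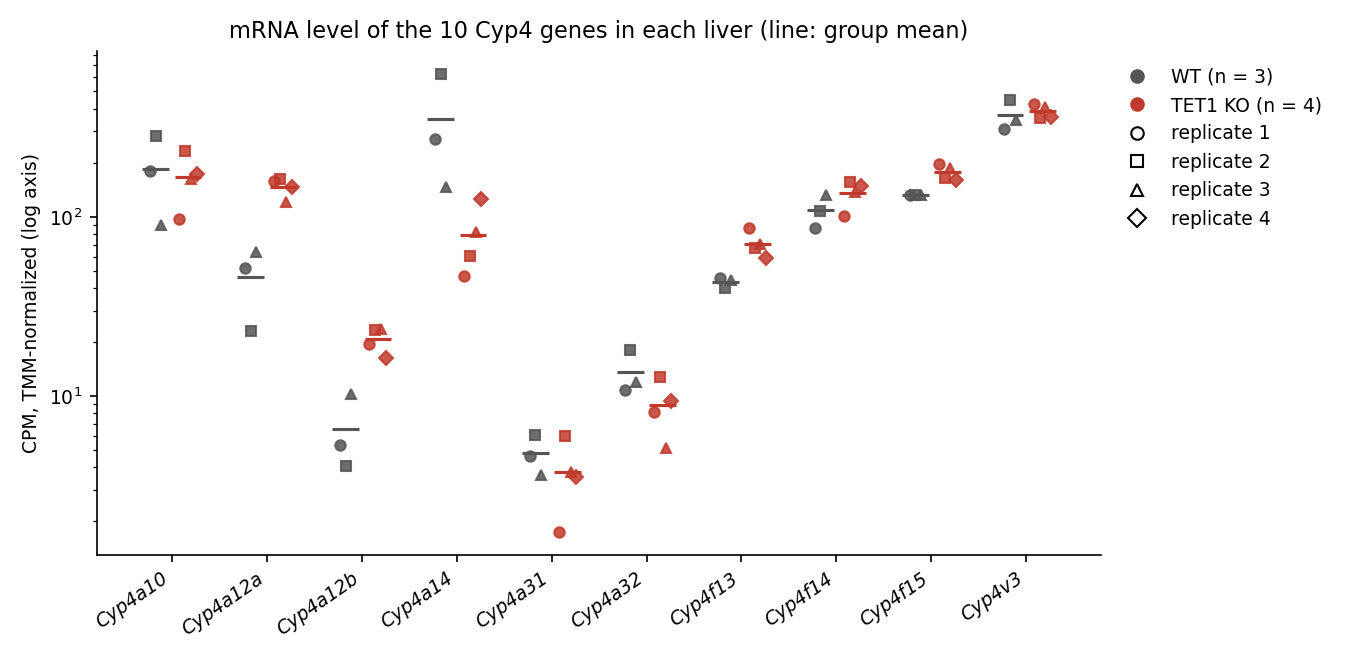
Level of each of the 10 Cyp4 genes (CPM, TMM-normalized, log axis) in the 3 WT (grey) and 4 TET1 KO (red) livers, with marker shape giving the replicate number and a line the group mean. Cyp4a12a, Cyp4a12b, Cyp4f13 and Cyp4f15 lie above all WT livers in TET1 KO, Cyp4a14 lies below them, and the groups overlap for the other 5 genes.

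Cyp4a12a lies on chromosome 4 from 115299046 to 115332815 (RefSeq, GRCm38.p6). It was measured at 51.5, 23.1 and 64.0 CPM in WT replicates 1 to 3 and at 158, 162, 122 and 146 CPM in TET1 KO replicates 1 to 4. The lowest TET1 KO liver was well above the highest WT liver, and the WT livers spread 2.77-fold against 1.33-fold in TET1 KO. The log2 fold change was 1.67 (standard error 0.29, 95% confidence interval 1.04 to 2.30, adjusted p = 0.0198), which placed the gene 89th by p among all tested genes.

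Cyp4a12b, its neighbor at 115411624 to 115439034, is transcribed into a nearly identical mRNA and was far less abundant. Its level was 5.36, 4.06 and 10.3 CPM in WT and 19.5, 23.3, 23.7 and 16.3 CPM in TET1 KO, again without overlap. The log2 fold change was 1.66 (standard error 0.29, 95% confidence interval 1.03 to 2.30, adjusted p = 0.0207). Within a liver Cyp4a12a had between 5.12 and 9.56 times the counts of Cyp4a12b, and the genotypes overlapped in this ratio.

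Cyp4a14, at 115486200 to 115496158, moved the other way. The WT livers held 272, 628 and 146 CPM and the TET1 KO livers 47.0, 60.7, 81.9 and 125 CPM. WT replicate 2 stood far above the others and WT replicate 3 was close to TET1 KO replicate 4, so that the groups were separated by a narrow gap and the WT livers spread 4.31-fold. The log2 fold change was -2.15 (standard error 0.44, 95% confidence interval -3.12 to -1.17, adjusted p = 0.0382), and with robust dispersions the adjusted p was 0.0800.

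Cyp4a10 (115518287 to 115533649), which shares its regulation by PPARalpha with Cyp4a14 in the textbook account, was not called. Its values were 181, 283 and 90.2 CPM in WT and 96.6, 232, 162 and 173 CPM in TET1 KO. The groups overlapped fully and the lowest and the highest liver were both WT. The log2 fold change was -0.15 with a 95% confidence interval of -0.93 to 0.62 (adjusted p = 0.800).

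Cyp4a31 (115563627 to 115579015) and Cyp4a32 (115600927 to 115622507), the near-copies of Cyp4a10, were scarce. Cyp4a31 had 4.63, 6.09 and 3.64 CPM in WT and 1.75, 5.99, 3.78 and 3.53 CPM in TET1 KO, and rested on 28 to 147 counts per liver. Cyp4a32 had 10.8, 18.1 and 11.9 CPM in WT and 8.14, 12.8, 5.11 and 9.42 CPM in TET1 KO. All TET1 KO livers but replicate 2 were below all WT livers for Cyp4a32. Their log2 fold changes were -0.36 (95% confidence interval -1.10 to 0.38, adjusted p = 0.509) and -0.63 (-1.25 to -0.01, adjusted p = 0.187), and neither was called.

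How far reads could be assigned among these genes depends on their sequences, so a 90-base coding stretch around the signature that binds the heme iron is shown, from the GENCODE M1 transcripts. It starts at base 1315 of the coding sequence in Cyp4a10, 1312 in Cyp4a12a and Cyp4a12b and 1309 in Cyp4a14. Capitals mark bases that differ from Cyp4a10.
Cyp4a10, Cyp4a31 and Cyp4a32: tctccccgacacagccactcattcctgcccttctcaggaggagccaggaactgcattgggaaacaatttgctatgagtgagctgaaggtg
Cyp4a12a and Cyp4a12b: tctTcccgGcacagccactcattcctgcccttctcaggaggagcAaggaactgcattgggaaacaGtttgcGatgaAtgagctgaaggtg
Cyp4a14: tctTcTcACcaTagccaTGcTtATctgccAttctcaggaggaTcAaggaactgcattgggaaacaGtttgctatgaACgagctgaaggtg
Within this stretch the 3 genes of the Cyp4a10 group had the same letters, as had the 2 Cyp4a12 genes, whereas the Cyp4a12 genes differed from Cyp4a10 at 6 bases and Cyp4a14 at 16.

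Over the whole coding sequence Cyp4a12a and Cyp4a12b were 98.5% identical, and Cyp4a10 was 96.6% identical to Cyp4a31 and 97.2% to Cyp4a32. Cyp4a14 was only 75.2% identical to Cyp4a10 and 75.6% to Cyp4a12a, and none of its 100-base windows occurred in another transcript. For Cyp4a12a 35.8% and for Cyp4a12b 36.2% of the 100-base windows occurred in the other gene. The share was 12.7% for Cyp4a10, 4.05% for Cyp4a31 and 20.1% for Cyp4a32. With 50-base windows the shares were 48.9% for Cyp4a12a, 49.4% for Cyp4a12b, 30.5% for Cyp4a10, 17.6% for Cyp4a31, of which some also occurred in 110 genes outside the family, and 46.8% for Cyp4a32, and still 0 for Cyp4a14. How reads that fit several genes were counted is not given in the sources used here, so the split within these groups is uncertain. When the near-identical genes were summed before the fit, Cyp4a12a plus Cyp4a12b gave a log2 fold change of 1.67 (adjusted p = 0.0178), Cyp4a10 plus Cyp4a31 plus Cyp4a32 gave -0.18 (adjusted p = 0.747) and Cyp4a14 stayed at -2.15 (adjusted p = 0.0383).

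**Figure D2:**
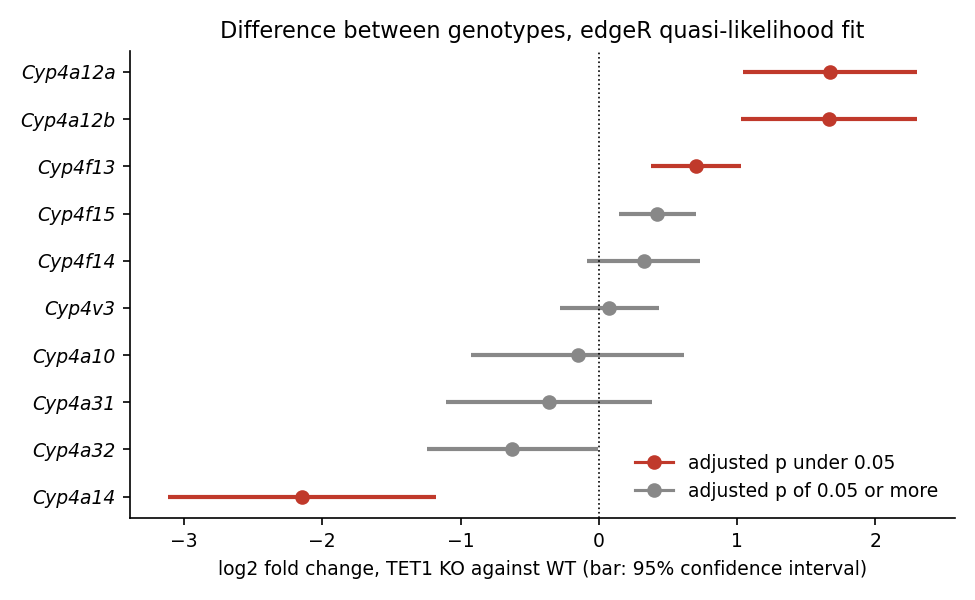
The log2 fold change of TET1 KO against WT (x axis) for each Cyp4 gene, with bars for the 95% confidence interval and red for an adjusted p under 0.05. Cyp4a12a, Cyp4a12b and Cyp4f13 lie to the right of 0, Cyp4a14 lies to the left at -2.15, and the grey genes did not pass.

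The Cyp4a12 genes were next set against Cyp4a10 and Cyp4a14 within each liver. A ratio of counts in 1 library depends on neither the scaling of libraries nor, between livers, on gene length. Cyp4a12a had 0.285, 0.0817 and 0.710 times the counts of Cyp4a10 in WT and 1.63, 0.698, 0.750 and 0.846 times in TET1 KO. TET1 KO replicate 2 was just below WT replicate 3 and the other 3 TET1 KO livers were above all WT livers. The mean log2 ratio was -1.97 ± 1.57 (SD, n = 3) in WT and -0.12 ± 0.56 (SD, n = 4) in TET1 KO, a 3.62-fold difference that did not pass the exact two-sided permutation test (p = 0.0571, adjusted over the 4 ratios tested 0.0762). The log2 difference was 1.86 with all livers, 1.04 without WT replicate 2 and 2.60 without WT replicate 3. With near-identical genes summed (Cyp4a12a plus Cyp4a12b over Cyp4a10 plus Cyp4a31 plus Cyp4a32) it was 1.90 and the exact permutation p was 0.0286. That p was not adjusted and is the smallest that the 35 splits allow.

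Against Cyp4a14 the ratio of Cyp4a12a was 0.189, 0.0368 and 0.439 in WT and 3.36, 2.67, 1.48 and 1.17 in TET1 KO. Cyp4a12a thus had fewer counts than Cyp4a14 in every WT liver and more in every TET1 KO liver. The mean log2 ratio was -2.79 ± 1.82 (SD, n = 3) in WT and 0.99 ± 0.71 (SD, n = 4) in TET1 KO, a 13.7-fold difference (exact two-sided permutation test, p = 0.0286, adjusted 0.0571). This is the smallest p that the 35 splits of 3 and 4 livers allow. The log2 difference of 3.77 was 2.78 without WT replicate 2 and 4.57 without WT replicate 3.

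For Cyp4a12b the counts were 0.0298, 0.0144 and 0.114 times those of Cyp4a10 in WT and 0.202, 0.101, 0.147 and 0.0942 times in TET1 KO. Only 2 of the 4 TET1 KO livers exceeded all WT livers (3.54-fold difference in the mean, exact permutation p = 0.0857, adjusted 0.0857), and the log2 difference of 1.82 was 1.15 without WT replicate 2 and 2.64 without WT replicate 3. Relative to Cyp4a14 the ratio was 0.0198, 0.00650 and 0.0706 in WT and 0.416, 0.384, 0.290 and 0.130 in TET1 KO, without overlap (13.4-fold, exact permutation p = 0.0286, adjusted 0.0571), and the log2 difference of 3.74 was 2.90 without WT replicate 2 and 4.62 without WT replicate 3.

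The PPARalpha targets Cyp4a10 and Cyp4a14 were also set against each other. Cyp4a10 had 0.664, 0.450 and 0.619 times the counts of Cyp4a14 in WT and 2.06, 3.82, 1.98 and 1.38 times in TET1 KO. All 4 TET1 KO livers were above 1 and all 3 WT livers below it. This ratio was looked at after the values of the genes were known and is given without a test.

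**Figure D3:**
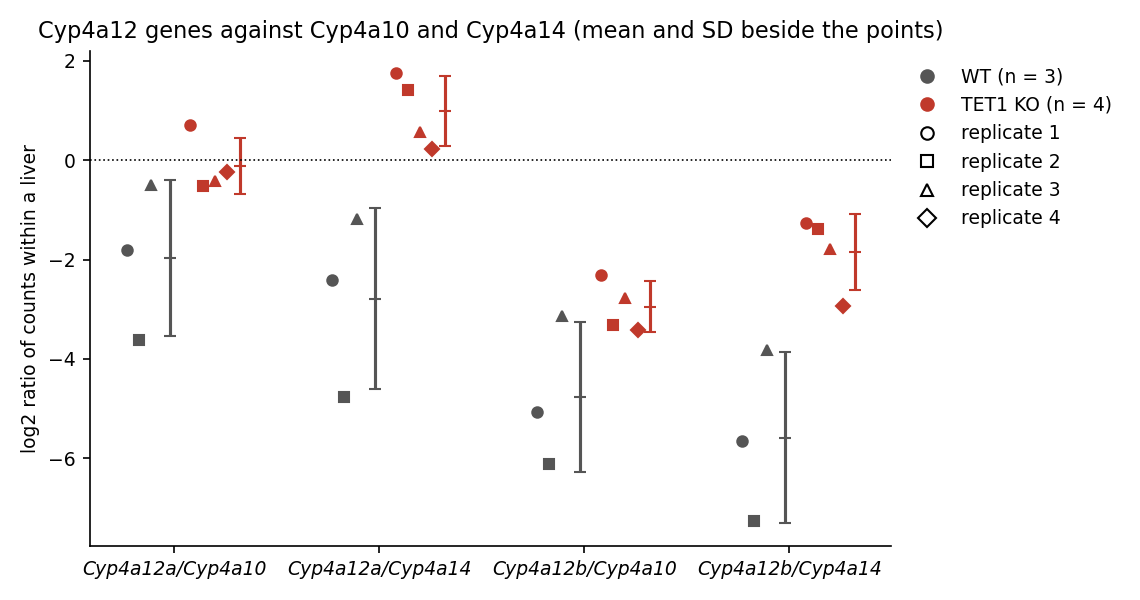
The log2 ratio of counts of Cyp4a12a and Cyp4a12b to Cyp4a10 and to Cyp4a14 (y axis) in each WT (grey) and TET1 KO (red) liver, with the group mean and SD beside the points. The genotypes are separated in both ratios to Cyp4a14, and overlap in both ratios to Cyp4a10, where 3 of 4 livers for Cyp4a12a and 2 of 4 for Cyp4a12b lie above all WT livers.

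The differences of the Cyp4f genes and Cyp4v3 were smaller than those of the called Cyp4a genes. Cyp4f13 (chromosome 17, 32924688 to 32947415) had 45.8, 39.9 and 44.3 CPM in WT and 86.0, 66.8, 70.3 and 58.8 CPM in TET1 KO. All TET1 KO livers were above the narrow WT range, and the log2 fold change was 0.70 (standard error 0.15, 95% confidence interval 0.37 to 1.03, adjusted p = 0.0423), and with libraries scaled by size alone the adjusted p was 0.0527. Cyp4f15 (chromosome 17, 32685631 to 32703352), a related eicosanoid and fatty acid hydroxylase gene, had 132, 132 and 133 CPM in WT and 198, 164, 187 and 161 CPM in TET1 KO. It did not overlap either, but its log2 fold change of 0.42 (standard error 0.13, 95% confidence interval 0.14 to 0.70) had an adjusted p of 0.0853 and was not called. DESeq2 called it, with an adjusted p of 0.0337, where it called 9.46% of all tested genes. With the replicate number as a block, a fit that called 8.99% of all tested genes, the same 4 members as above were called.

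Cyp4f14 (chromosome 17, 32903357 to 32917376), which encodes the main leukotriene B4 omega-hydroxylase of mouse liver, was at 86.7, 107 and 132 CPM in WT and 101, 156, 138 and 148 CPM in TET1 KO. WT replicate 3 was above TET1 KO replicate 1, and the log2 fold change was 0.32 (95% confidence interval -0.08 to 0.73, adjusted p = 0.279). Cyp4v3 (chromosome 8, 45305801 to 45333163), the mouse counterpart of human CYP4V2, was at 309, 448 and 345 CPM in WT and 426, 355, 411 and 359 CPM in TET1 KO. Both the lowest and the highest liver were WT, and the log2 fold change was 0.08 (95% confidence interval -0.28 to 0.44, adjusted p = 0.786). Of the Cyp4v3 transcript, 7.50% of the 100-base windows also occurred in 1 other gene.

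RefSeq promoter sequences were matched for 5 of the 10 members, namely Cyp4a32, Cyp4f13, Cyp4f14, Cyp4f15 and Cyp4v3. The bases before the outermost annotated start are shown for Cyp4f13 (minus strand) and Cyp4f15 (plus strand), the 2 Cyp4f genes whose TET1 KO livers all exceeded WT, in GRCm38.p6 and from 5′ to 3′ in the direction of transcription.
Cyp4f13, chr17:32947416-32947611: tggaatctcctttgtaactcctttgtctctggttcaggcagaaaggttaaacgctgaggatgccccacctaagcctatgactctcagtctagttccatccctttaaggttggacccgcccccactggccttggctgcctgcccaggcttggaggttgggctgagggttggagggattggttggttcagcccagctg
Cyp4f15, chr17:32685409-32685630: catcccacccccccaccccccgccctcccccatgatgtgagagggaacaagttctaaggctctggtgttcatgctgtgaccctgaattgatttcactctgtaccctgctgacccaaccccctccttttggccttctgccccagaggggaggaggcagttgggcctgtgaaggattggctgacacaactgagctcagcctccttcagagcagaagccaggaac
In the full 250 bases before each annotated start, both strands were searched for the nuclear receptor letters AGGTCA (in 14.02% of all 32851 promoters), a pair of these in direct repeat with 1 base between them, known as DR1 (0.0335%), the STAT letters TTCNNNGAA (7.02%) and TATAAA (12.4%). AGGTCA contains no other of these motifs, and a direct repeat is also counted under AGGTCA. In the windows of the 5 members, 0 matches to the nuclear receptor letters or DR1 were found on either strand. The STAT letters read the same on both strands and occurred once among the 5 members, as TTCAGAGAA from 22 bases before 1 start of Cyp4f13 and within the annotated span of the gene, and TATAAA occurred once, on the minus strand of Cyp4a32. No capitals are used above because no match falls in the bases shown.

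Levels were then compared between genes per kb of exon, from GENCODE M1 gene lengths. On this scale the 10 genes summed to 499 ± 152 CPM per kb (SD, n = 3) in WT and 478 ± 23.9 (SD, n = 4) in TET1 KO, a difference smaller than the spread. Cyp4v3 was the most abundant in 6 of 7 livers, with 125 ± 24.5 CPM per kb in WT and 131 ± 12.2 in TET1 KO, and Cyp4a14 was first in WT replicate 2. Cyp4a31 was the least abundant in 6 of 7 livers, at 1.91 ± 0.49 CPM per kb in WT and 1.50 ± 0.69 in TET1 KO. In the exception, WT replicate 2, Cyp4a12b came last.

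The make-up of this sum is described next, without a test. Cyp4a14 made up 23.9%, 36.0% and 14.5% of the summed CPM per kb in WT and 4.05%, 4.63%, 6.59% and 9.99% in TET1 KO, and ranked between 1 and 4 among the members in WT and at 6 or 7 in TET1 KO. Cyp4a12a made up 4.83%, 1.42% and 6.81% in WT and 14.6%, 13.3%, 10.5% and 12.5% in TET1 KO, and ranked at 6 or 8 in WT and at 3 or 5 in TET1 KO. Neither range overlapped between the genotypes. Cyp4a10 was at 16.9% ± 5.03 (SD, n = 3) and 16.3% ± 4.76 (SD, n = 4), and Cyp4f15 was at 12.3% ± 3.31 and 16.4% ± 2.40. In TET1 KO Cyp4a10, Cyp4f15, Cyp4f14 and Cyp4a12a lay between 60.5 and 78.7 CPM per kb, closer to each other than Cyp4a10 livers were among themselves (SD 26.4). The gene model of Cyp4a32 is close to its coding length, so its level per kb is uncertain against the others.

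**Figure D4:**
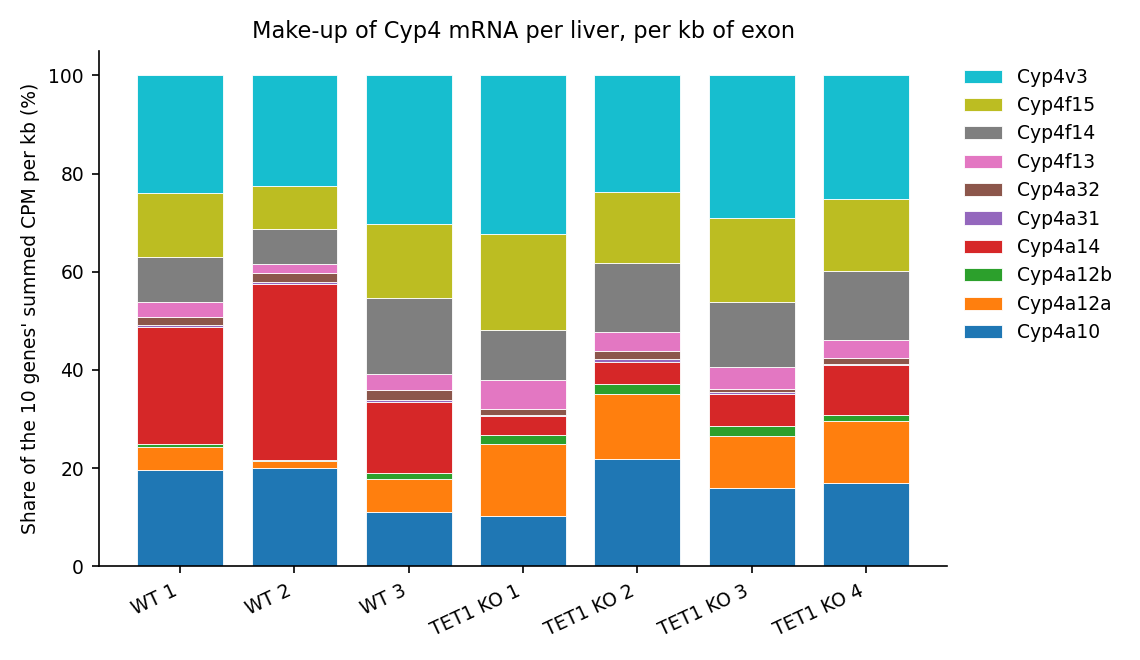
Stacked bars give the share of each Cyp4 gene in the summed CPM per kb of the 10 genes (y axis, %) for each liver. Cyp4a14 (red) takes 14.5% to 36.0% in WT and 4.05% to 9.99% in TET1 KO, while Cyp4a12a (orange) takes 1.42% to 6.81% in WT and 10.5% to 14.6% in TET1 KO.

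The calls depended on single livers. Without WT replicate 2, the liver with the highest Cyp4a14 and the lowest Cyp4a12a, the log2 fold change of Cyp4a14 fell in size to -1.42 (adjusted p = 0.186), that of Cyp4a12a was 1.34 and was still called, and that of Cyp4a10 turned to 0.28 (adjusted p = 0.720). In that fit 37 of all tested genes were called, against 298 with all livers. Cyp4a12a lost its call only without TET1 KO replicate 2 (1.61, adjusted p = 0.0527), among the 7 fits that left out 1 liver. Cyp4a12b kept its call in 3 of these fits, losing it without WT replicate 1, WT replicate 2, TET1 KO replicate 2 or TET1 KO replicate 3. Cyp4a14 kept it in 2, without WT replicate 3 and without TET1 KO replicate 4, and Cyp4f13 in 1, without TET1 KO replicate 4. The sign of these 4 genes was the same in all 7 fits.

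**Figure D5:**
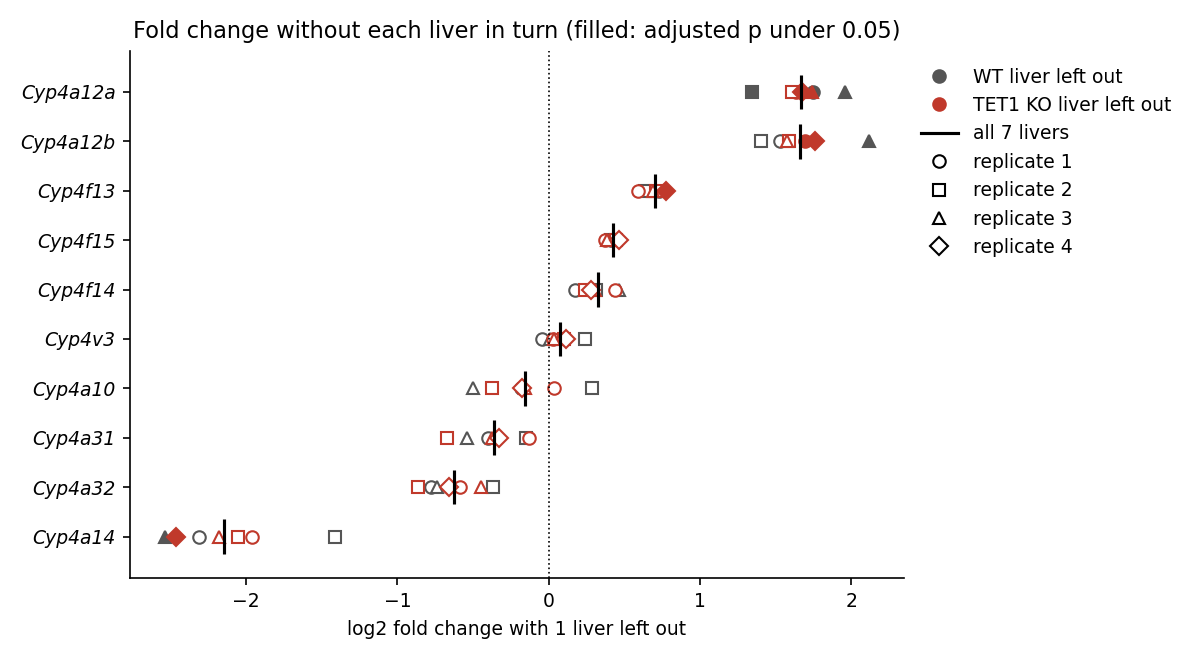
The log2 fold change of each Cyp4 gene (x axis) when 1 liver is left out, with color for the genotype and shape for the replicate of that liver, filled where the adjusted p stayed under 0.05, and a black line for the fit with all 7 livers. Cyp4a14 ranges from -2.54 to -1.42 and Cyp4a12a from 1.34 to 1.96, and the points of Cyp4a10 and Cyp4v3 fall on both sides of 0.

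Among the members Cyp4f13 and Cyp4f15 had the most similar profiles over the 7 livers, with a root mean square difference of 0.16 in centered log2 CPM. For Cyp4a12a and Cyp4a12b it was 0.32, for Cyp4a10 and Cyp4a31 it was 0.34, and for Cyp4a10 and Cyp4a14 it was 1.04. Cyp4a12a and Cyp4a14 were farthest apart, at 2.15. These are descriptions over 7 livers of shared libraries. The difference is not scaled to the spread of a gene, so genes that vary little lie close whatever their course. Cyp4f15 and Cyp4v3, for example, were 0.22 apart. Outside the family, the genes closest to Cyp4a14 were Cyp2c38 (0.35), Elovl5 (0.40), Slc16a5 (0.41), Acss3 (0.41) and Mme (0.41). Closest to Cyp4a12a were Slc30a3 (0.26), Irx1 (0.28), Bhlhe41 (0.28), Tcea2 (0.29) and Sspo (0.30). The nearest to Cyp4a10 were Gm10767 (0.12), Gas1 (0.21), Gm12265 (0.26), Fut10 (0.27) and C330021F23Rik (0.27), and to Cyp4f14 they were Serpinf2 (0.08), Syt1 (0.08), F7 (0.09), Gltpd2 (0.11) and Ahsg (0.11).

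The other Cyp4 genes that were listed were low, and 6 further Cyp4 entries of the tables, pseudogenes and an antisense transcript, were not examined. Of 11 listed, 4 passed the filter, and 0 were called by edgeR, 0 by DESeq2 and 0 had an unadjusted p under 0.05. Cyp4b1 was highest, at 11.8 ± 1.86 CPM (SD, n = 3) in WT and 10.2 ± 1.98 (SD, n = 4) in TET1 KO. Cyp4f17, Cyp4f16 and Cyp4f18 were at 4.48 ± 0.75, 1.93 ± 0.40 and 0.86 ± 0.51 CPM in WT and 3.62 ± 0.58, 1.52 ± 0.17 and 0.84 ± 0.19 CPM in TET1 KO. The other 7 had at most 5 counts in any liver.

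Genes of the partners of the Cyp4 enzymes in omega-oxidation were not called by edgeR with all 7 livers. All 14 electron donors, dehydrogenases and other hydroxylases listed were tested, 2 had an unadjusted p under 0.05, and the median log2 fold change was -0.07. DESeq2 called 1 of them, the fatty aldehyde dehydrogenase gene Aldh3a2, lower (log2 fold change -0.81, adjusted p = 0.0216 from DESeq2). Leaving out 1 liver, edgeR called Aldh3a2 lower without WT replicate 3 (log2 fold change -1.06, adjusted p = 0.0337) and the fatty acid hydroxylase gene Cyp2u1 higher without TET1 KO replicate 4 (0.67, adjusted p = 0.0436), and called none of the list in the other 5 fits. Por, the electron donor, was at 197 ± 57.7 CPM (SD, n = 3) in WT and 205 ± 76.7 (SD, n = 4) in TET1 KO, with a log2 fold change of 0.06 (95% confidence interval -0.54 to 0.65, adjusted p = 0.909). Of 26 genes of peroxisomal oxidation, 25 were tested and 1 was called, the peroxisomal acyl-CoA thioesterase gene Acot3, which was 6.87-fold lower (adjusted p = 0.0382). Its levels of 28.6, 49.9 and 5.85 CPM in WT and 3.01, 3.24, 2.66 and 7.33 CPM in TET1 KO overlapped. Leaving out 1 liver, the log2 fold change of Acot3 lay between -3.28 (without WT replicate 3) and -2.08 (without WT replicate 2), and it was called in 2 of 7 fits, those without WT replicate 3 and without TET1 KO replicate 4. The median of this list was -0.38, and 13 of its genes had an unadjusted p under 0.05, against 26.3% of all tested genes. DESeq2 called 8 of the list lower and 0 higher, where it called 9.46% of all tested genes and edgeR called 2.02%. Leaving out 1 liver, edgeR called none of the list in 5 of 7 fits, 3 lower without WT replicate 3 and 4 lower without TET1 KO replicate 4, and the median lay between -0.60 and -0.28.

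Of 28 listed regulators of Cyp4a and Cyp4f genes 27 were tested, 2 were called lower and 0 higher, with a median log2 fold change of 0.12. DESeq2 called the same 2 lower and 1 higher, the nuclear receptor gene Nr1i3 (0.55, adjusted p = 0.0461 from DESeq2). Over all tested genes edgeR called 1.15% lower and 0.874% higher, and DESeq2 called 9.46% in either direction. Pparg, the nuclear receptor best known from adipocytes, was at 17.1, 15.4 and 8.11 CPM in WT and 2.44, 6.06, 4.35 and 4.69 CPM in TET1 KO, a 3.10-fold lower level (adjusted p = 0.0265). The groups did not overlap, which held for 22.5% of all tested genes. The call was lost without WT replicate 1, WT replicate 2 or TET1 KO replicate 3 (highest adjusted p 0.149). Ppara, which encodes PPARalpha, had a log2 fold change of -0.09 (95% confidence interval -0.60 to 0.42, adjusted p = 0.830). Its partner Rxra had 0.04 (-0.37 to 0.45, adjusted p = 0.916), the hepatocyte regulator Hnf4a had 0.12 (-0.22 to 0.45, adjusted p = 0.645), and Stat5b, which carries the growth hormone signal, had 0.20 (-0.08 to 0.48, adjusted p = 0.330).

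Other genes that PPARalpha is known to induce were examined beside Cyp4a10 and Cyp4a14. Of 32 listed 29 were tested, 4 were called lower and 0 higher, and the median log2 fold change was -0.38. DESeq2 called 9 lower and 2 higher, Cpt1b (1.20) and Angptl4 (0.68). The shares over all tested genes were 1.15% lower and 0.874% higher with edgeR, and 9.46% in either direction with DESeq2. Mogat1, a monoacylglycerol acyltransferase gene, was 9.93-fold lower (adjusted p = 0.00272), Vnn1, a pantetheinase gene, 9.71-fold (adjusted p = 0.00224), Cd36, the fatty acid translocase gene, 7.82-fold (adjusted p = 0.00346) and Plin2, a lipid droplet coat gene, 2.01-fold (adjusted p = 0.0382). None of these 4 overlapped between genotypes, as all TET1 KO livers were below WT for 10.8% of all tested genes. They were picked by their adjusted p on the same livers, so this is no further support. The study singled out Cd36 on these libraries, so its count here is no independent evidence. Mogat1, Vnn1 and Cd36 were called in all 7 fits that left out 1 liver. Plin2 was called in 2 of them, without WT replicate 3 and without TET1 KO replicate 4, and the median of the list lay between -0.56 (without WT replicate 3) and -0.21 (without WT replicate 2).

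Cyp4a12a is a male-biased liver gene, and other genes with a known sex bias were counted in these male livers. Of 20 male-biased genes, all tested, 4 were called higher and 0 lower, against 0.874% and 1.15% of all tested genes. The median of the list was 0.51. The 4 were Mup1, a major urinary protein gene (5.25-fold, adjusted p = 0.0214), Susd4 (3.36-fold, adjusted p = 0.00346), Slco1a1, an organic anion transporter gene (3.34-fold, adjusted p = 0.00736), and Cyp7b1, an oxysterol hydroxylase gene (2.30-fold, adjusted p = 0.0271). Mup1 belongs to a family of near-identical genes, so its count is uncertain. DESeq2 called these 4 and Mup21, Gstp2 and C6 higher, and the fatty acid elongase gene Elovl3 (-0.93) lower. Of all tested genes DESeq2 called 9.46%. Leaving out 1 liver gave between 1 gene of the list called higher (without WT replicate 2) and 7 (without TET1 KO replicate 4), and the median was 0.42 without WT replicate 2 and 0.89 without WT replicate 3. Susd4 was called in all 7 of these fits, Slco1a1 in 6 (not without WT replicate 2), Mup1 in 3 and Cyp7b1 in 2. Of 23 female-biased genes 14 were tested, 2 were called lower and 0 higher, against 1.15% and 0.874% of all tested genes. The median of this list was -1.10. The 2 called by edgeR were Acot3, which is also among the peroxisomal genes above, and Cyp2a22 (log2 fold change -3.59, adjusted p = 0.0212), which had 102, 81.7 and 11.9 CPM in WT and 1.75, 5.35, 5.63 and 8.81 CPM in TET1 KO. Cyp2a22 was called in 4 of the 7 fits, not without WT replicate 2, TET1 KO replicate 2 or TET1 KO replicate 3, and Acot3 in 2. Between 0 and 4 genes of this list were called lower in these fits. DESeq2 called Acot3, Cyp2a22 and Fmo2 (-1.07) lower.

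Markers of other cells were read for 11 further lists. The summed level of the 6 cholangiocyte markers was 29.7 to 37.9 CPM in WT and 46.2 to 68.0 CPM in TET1 KO. Of the 5 tested, 0 were called by edgeR, 3 were called higher by DESeq2 (Epcam, Sox9 and Spp1), 4 had an unadjusted p under 0.05, and none was at 0 in all livers. Among all tested genes DESeq2 called 9.46%, and 26.3% had an unadjusted p under 0.05 with edgeR. Krt19 and Epcam were highest in TET1 KO replicate 4, at 6.68 and 4.87 CPM against at most 1.69 and 0.99 CPM in the other livers. Without that liver the median log2 fold change of the list was 0.54 in place of 1.22, 2 genes had an unadjusted p under 0.05 and edgeR called 1. The sum of 4 pancreas markers was 14.01 to 21.7 CPM in WT and 36.6 to 80.8 CPM in TET1 KO, and nearly all of it was Cela1, the only one tested, which was called higher (17.4 ± 3.99 CPM in WT, 62.9 ± 19.0 in TET1 KO, adjusted p = 0.00913) and lost its call only without WT replicate 2 among the fits that left out 1 liver. Prss1 was at 0 in all livers, and Ctrb1 and Cpa1 were at most 0.29 CPM in any liver. The cholangiocyte sum and Cela1 were higher in TET1 KO, as were Cyp4a12a, Cyp4a12b and Cyp4f13, and the part of bile duct cells in those differences was not tested. Kidney proximal tubule markers, of interest because Cyp4a12a is also a kidney gene, summed to at most 0.0552 CPM in WT and 0.186 CPM in TET1 KO, and 3 of the 5 were at 0 in all livers. The sums of the other 8 lists overlapped between the genotypes. In these and the hepatocyte list edgeR called 0 markers, and 2 hepatocyte, 2 stellate cell, 1 endothelial, 1 B cell and 1 red blood cell marker had an unadjusted p under 0.05. DESeq2 called the hepatocyte markers Apoa1 (1.09) and Serpina1a (0.45) higher, and the stellate cell collagens Col1a1 (-0.98) and Col3a1 (-1.002) and the endothelial marker Lyve1 (-1.10) lower. Single livers also set some of these lists apart. TET1 KO replicate 2 held 4.23 CPM of Adipoq and 4.93 CPM of Plin1, both at most 0.37 CPM elsewhere, and without it the 1 tested adipocyte marker was called lower. WT replicate 3 held 13.3 CPM of the neutrophil marker S100a8 against at most 2.54 CPM elsewhere, and without it the neutrophil median turned from -1.49 to 0.52, and 2 stellate cell markers and 1 endothelial marker were called lower. Without TET1 KO replicate 4 the median of the red blood cell markers was -1.10 in place of -0.52 and 3 were called lower.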

How the data were processed

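Liver RNA of 7 male mice was sequenced for the authors by a service company after poly(A) selection or, as an alternative named in the labels, rRNA depletion, with a stranded dUTP library kit. The authors deposited 1 table of raw read counts per mouse, not normalized. Per the submitters' processing notes, reads were trimmed with Trimmomatic 0.36, aligned with GSNAP to GRCm38 and counted with featureCounts 1.5.3. The strand setting, the treatment of multi-mapping reads and the annotation release are not given in the sources used here, so antisense, overlapping and near-identical genes remain uncertain. Each table listed 51431 entries, and 5 repeats were left out. Groups and replicate numbers came from the labels. The study describes the controls of its TET1 KO mice on this diet as littermates, but which sequenced mice shared a litter is not given. Nothing says more about how samples of a group relate, so p-values measure the spread between these samples.

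Counts were tested in R 4.3.3 with edgeR 4.0.16 (filterByExpr, TMM, glmQLFit with legacy = FALSE, glmQLFTest, no covariates), with Benjamini-Hochberg adjustment over 14754 genes and calls at an adjusted p under 0.05. Fold changes are those of this fit, and CPM values are TMM-normalized. Ratios of counts (prior count 0.5) were compared by an exact two-sided permutation test on the absolute difference in means. Alternatives were DESeq2 1.42.0, RLE factors, library size only, other filters and thresholds, robust dispersions, a block for the replicate number, summed near-identical genes, a prior count of 2 for ratios, and leaving out each liver. The test was checked on simulated counts.

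The members, the gene lists and the 4 ratios were chosen with earlier results of these data known. Named genes are the members, the called genes of the lists (except 1 called regulator, which is not reported here), 6 regulators and electron donors whether called or not, Tet1, and for 4 members the 5 genes with the smallest root mean square difference in centered log2 CPM (prior count 2). The Cyp4a10 to Cyp4a14 ratio, the profile distances between members, list genes called by DESeq2 alone or with 1 liver left out, the other Cyp4 genes and the named markers of cell types were chosen after their values were seen. Coordinates and promoters are from RefSeq GRCm38.p6, and exon lengths and transcript sequences are from GENCODE M1, matched by Ensembl identifier. Proteins were not used here. At these depths 1 CPM corresponds to 15.0 to 22.7 counts before normalization.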

Additional observations from a re-analysis of the deposited data

Results flagged for a closer look

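In 3 of 31 values examined, 1 of the 4 TET1 KO livers stood apart from the other 3, by the share of the group's range that lay between it and the nearest liver. That share was above Dixon's 95% critical value for 4 samples, which chance exceeds in about 1 group in 20, so 1.55 of 31 would be expected. The liver was TET1 KO replicate 4 each time. For Rxra it had 351 CPM against 252 to 261 CPM in the other 3 (share 0.911). For Por it had 319 CPM against 156 to 180 CPM (share 0.849). For Acot3 it had 7.33 CPM against 2.66 to 3.24 CPM (share 0.876). None of the 10 Cyp4 genes and none of the 4 ratios was marked in this way.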

How the results depend on the processing

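The 4 called Cyp4 genes kept their direction in all 14 or 15 alternatives, with log2 fold changes of 1.34 to 1.96 for Cyp4a12a, 1.40 to 2.12 for Cyp4a12b, 0.59 to 0.78 for Cyp4f13 and -2.54 to -1.42 for Cyp4a14. With robust dispersions 0 members were called lower, Cyp4a14 having an adjusted p of 0.0800, and with library size only Cyp4f13 had 0.0527. The adjusted p of Cyp4a14 over its alternatives was between 0.00831 and 0.186. Leaving out 1 liver gave 0 to 3 members called higher, 0 to 1 called lower and 37 to 891 genes called in all. Over all genes 298 were called, against 1395 with DESeq2, 592 with no filter, 1327 with the replicate block and 1666 at an adjusted p under 0.1. Library size only shifted the median of all genes to -0.08.

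Signs that turned belonged to results that were not called. Without 1 liver Cyp4a10 lay between -0.50 and 0.28, turning without WT replicate 2 (0.28) and without TET1 KO replicate 1 (0.04). Cyp4v3 was -0.020 with library size only, and without 1 liver it lay between -0.046 and 0.24. The median of the electron donor list lay between -0.21 and 0.0052, above 0 without TET1 KO replicate 1. The cause was not tested.

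Replicate numbers were shared between genotypes. Same-numbered livers deviated with correlations of 0.21, -0.12 and -0.10, and other pairs lay between -0.30 and 0.31. So few livers cannot show whether the number marks a shared batch. With the number as a block 8.99% of all tested genes were called, against 2.02% without it, and the same 4 members were called.

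Without 1 liver the log2 ratios to Cyp4a14 lay between 2.78 and 4.57 for Cyp4a12a and between 2.90 and 4.62 for Cyp4a12b, and between 1.04 and 2.64 for either gene to Cyp4a10, and those splits cannot reach 0.05. With near-identical genes summed the log2 difference in the ratio to the Cyp4a10 group was 1.90. Its exact permutation p of 0.0286 was not adjusted and is the smallest possible. Doubling the smaller tail left the differences of 3.77 and 3.74 to Cyp4a14 at an exact permutation p of 0.0571. A first run used that form by default. The form reported above, whose smallest exact permutation p is 0.0286 as planned, replaced it, and the doubled tail was kept as an added alternative. It was not run for the summed genes.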
